A study of Mus musculus with 4 samples.

Results

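Peritubular myoid cells are the flattened, contractile cells that wrap the seminiferous tubules of the testis. They carry the actomyosin apparatus of smooth muscle, their contraction moves fluid and sperm along the tubule, and together with Sertoli cells they lay down the basement membrane on which spermatogonia sit. They are also known as a source of factors that reach the germ-cell niche, such as GDNF and CSF1. Here 2600 of 29592 filtered barcodes (8.79%) were taken as peritubular myoid cells. They were chosen by 5 measured transcripts, *Acta2*, *Myh11*, *Tagln*, *Myl9* and *Actg2*: at least 4 of the 5 had to have a unique molecular identifier (UMI, a tag that marks 1 captured transcript), their sum had to reach 20 per 10000 UMIs, and the germ-cell transcript *Dazl* was limited to 2 UMIs. The levels of these 6 genes in the selected cells are therefore given as a description, without a test.

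The cells came from single-cell libraries of dissociated testes of C57BL/6N mice at postnatal day 15 (P15), 2 wild-type pups and 2 Meioc KO pups, which carry the *Meioc*-null allele tm1.1Dpc. All 4 pups were also heterozygous for *Hspa2* tm1Dix and homozygous for the *ROSA26* tdTomato reporter with its floxed stop intact. *Meioc* encodes a protein of germ cells that acts with YTHDC2 and RBM46 as spermatogenic cells enter meiosis, so the genotype comparison asks what the myoid cells around mutant germ cells look like. Each library was made from 1 testis, each of the 2 batches held 1 wild-type and 1 Meioc KO littermate, and the replicate number was taken as the batch number. After the first collagenase digestion the loosened interstitium was thrown away, which bears on any share of cells. A filtered barcode had over 1000 detected genes and under 10% mitochondrial UMIs.

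Selected cells numbered 580 and 570 in wild type and 764 and 686 in Meioc KO, with median UMIs per cell of 9783 and 10048.5 in wild type and 8366 and 11482 in Meioc KO and summed depths of 6249470 to 11227514 UMIs per library. Levels are given as counts per 1000000 UMIs (CPM) of the cells summed within a library, so that n is 2 libraries per genotype. Any 2 libraries shared 12 to 16 filtered barcode sequences, and 1 selected barcode was shared, by the 2 Meioc KO libraries. Germ cells in the same files separated the genotypes: *Ldhc*, a lactate dehydrogenase of pachytene spermatocytes, stood at 413 and 242 CPM in the wild-type pups and 1.56 and 1.35 CPM in the Meioc KO pups. *Meioc* itself was counted in germ cells of both genotypes (283 to 358 CPM), and since the sources used here do not place the deletion relative to these 3′ tags, its level does not check the labels. Tags are counted at the 3′ end of transcripts, so that levels of different genes are not set against each other.

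In wild type, all 5 transcripts used for the selection stood far above their levels in other cells of the same libraries. *Acta2*, smooth muscle alpha-actin (ENSMUSG00000035783, chromosome 19, 34241090 to 34255590 on GRCm38), was at 11539.7 and 10125 CPM in the wild-type pups and 10347 and 10493 CPM in the Meioc KO pups. Wild-type fibroblast-like cells held it at 74.1 and 64.6 CPM and Sertoli cells at 90.6 and 101 CPM. *Myh11*, the smooth muscle myosin heavy chain (chromosome 16, 14194535 to 14291372), was at 2289 and 2646 CPM in the wild-type pups and 3174 and 2523 CPM in the Meioc KO pups, and *Tagln*, the actin-binding transgelin, was at 2935 and 2429 CPM in the wild-type pups and 2275 and 2581 CPM in the Meioc KO pups. *Myl9*, a myosin regulatory light chain, was at 4277 and 3218 CPM in the wild-type pups and 4084 and 3603 CPM in the Meioc KO pups. *Actg2*, enteric gamma-actin, was at 322 and 273 CPM in the wild-type pups and 311 and 318 CPM in the Meioc KO pups. The genotypes overlapped for each of the 5 genes. All 5 markers had a UMI in 1910 cells and 4 markers in 690.

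Few cells lay near the limit on the marker sum, while many lay at the limits on the number of markers and on *Dazl*. The median marker sum per library was 184 to 209.8 per 10000 UMIs, and only 22 selected cells lay between 20 and 40, with 12 barcodes just outside between 10 and 20. The 690 cells with 4 markers stood at the limit on their number, and 48 further barcodes met the other criteria with 3 markers. On the *Dazl* scale, 297 barcodes met both marker criteria with 3 or more *Dazl* UMIs, and their median depth of 21523 to 34299 UMIs per library was above that of the selected cells. Within the limit, 703 cells had 1 or 2 *Dazl* UMIs.

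**Figure D1:**
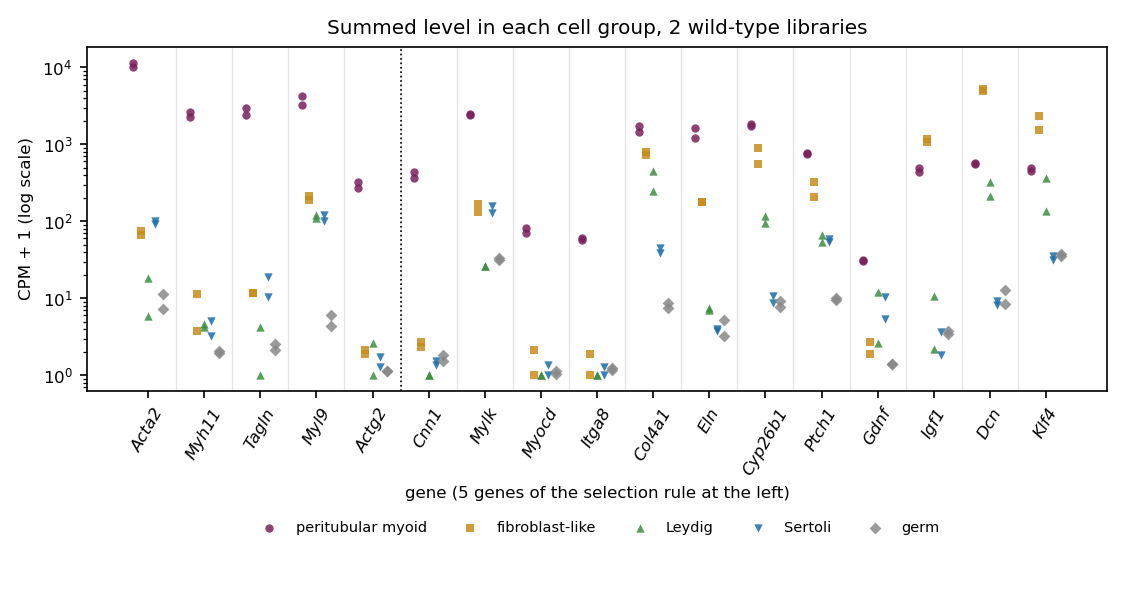
Summed level of 17 genes in 5 cell groups of the 2 wild-type libraries, as CPM + 1 on a log axis; each point is 1 library. The 5 genes left of the dotted line chose the myoid cells, and *Igf1*, *Dcn* and *Klf4* at the right are higher in fibroblast-like cells.

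Smooth muscle genes are classically switched on by serum response factor with its partner myocardin through CArG boxes, 10-base sites that start with CC and end with GG around 6 bases of A or T. Promoter windows of 300 bases (RefSeq, GRCm38.p6, 250 bases before to 50 after a start site) were searched for this box, which reads as the same pattern on both strands, and for near matches in which 1 of the 6 central bases is G or C. The following stretches belong to the genes among the 25 most myoid-enriched ones that held a box or a near match, and they show how far these sites lie from the start. Each is written 5′ to 3′ on the gene's strand with every box or near match in capitals.
Acta2, chr19:34255373-34255482, minus strand: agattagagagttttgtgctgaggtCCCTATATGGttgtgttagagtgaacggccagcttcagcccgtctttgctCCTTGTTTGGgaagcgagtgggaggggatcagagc
Myl9, chr2:156775278-156775399, plus strand: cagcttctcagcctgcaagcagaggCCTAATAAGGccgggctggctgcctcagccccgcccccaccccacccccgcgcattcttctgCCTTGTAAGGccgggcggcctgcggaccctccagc
Asb2, chr12:103356031-103356090, minus strand: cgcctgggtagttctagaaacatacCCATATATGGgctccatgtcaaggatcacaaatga
Fbxl22, chr9:66514781-66514840, minus strand: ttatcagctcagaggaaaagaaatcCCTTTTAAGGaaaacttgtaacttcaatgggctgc

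*Acta2* held 2 near matches, beginning 84 and 34 bases before the start site. *Myl9* held a full box 161 bases before its start and a near match 99 bases before it. The boxes of *Asb2* and *Fbxl22* began 64 and 222 bases before the start. Of the 25 genes, 14 had a window, and 3 of their 17 windows held a full box, against 535 of 32851 windows (1.63%) over all genes. Near matches were in 2 of those 17 windows and in 8.50% of all. The windows with near matches (*Acta2* and *Myl9*) and 1 of the windows with a full box (*Myl9*) belonged to selection genes. The other full boxes were those of *Asb2* and *Fbxl22*. Selection genes are high in the chosen cells by the rule itself, so the comparison with all genes is not independent of the selection. *Srf* itself held 2 full boxes, and *Vcl*, *Actg1* and *Myl6* of the contractile list held 1 each. *Myh11*, *Tagln* and *Actg2* had no window in the table. A match in these windows is a description of the letters and not a measured site.

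Beyond the selection genes, transcripts of the contractile apparatus led the profile of wild-type myoid cells. The 25 genes with the highest ratio of myoid CPM to the highest CPM among Sertoli, Leydig, fibroblast-like and germ cells (100 CPM or more in both wild-type libraries, ranked by the lower library) included the 5 selection genes. Ahead of all stood *Cnn1*, calponin, an actin-binding regulator of contraction, at 441 and 359.6 CPM and 262 to 276 times its highest level elsewhere. *Tnnt2* and *Tnnt1*, the cardiac and slow skeletal troponin T genes, were at 700.4 and 667 CPM and 159 and 157 CPM, with ratios of 38.99 to 48.7 and 10.7 to 14.2. *Casq2*, a calcium-binding protein of the sarcoplasmic reticulum best known from heart, was at 460.4 and 323 CPM with a ratio of 9.01 to 9.12. Transcripts of striated muscle were thus counted in these cells beside those of smooth muscle.

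*Mylk*, the kinase that starts smooth muscle contraction by phosphorylating the myosin light chain, was at 2461 and 2411 CPM with a ratio of 14.3 to 15.4. *Tpm2*, *Actn1*, *Nexn* and *Lmod1*, which encode tropomyosin, alpha-actinin and other actin-filament proteins, had ratios of 12.5 to 12.99, 29.5 to 44.7, 17.1 to 17.96 and 10.2 to 11.95. Outside the contractile machinery, *Fbxl22* and *Fbxo32*, 2 F-box proteins of muscle, were at 569 and 618 CPM and 480.2 and 545 CPM with ratios of 118 to 127 and 19.9 to 32.2. *Carmn*, a long noncoding RNA of smooth muscle, was at 142 and 143 CPM. Others of the 25 were *Sytl2*, *Itga1*, *Tspan2*, *Tmem204*, *Asb2*, *Ecscr* and *Ccn2*. Over the 25 genes of the contractile list, 24 were highest in myoid cells and 17 by over 2-fold, where 4.57% of the 8467 genes at 10 CPM or more were. *Actg1*, cytoplasmic gamma-actin, was the member that was not highest in myoid cells, at 1639 and 1560.1 CPM against 2158 and 1757 CPM in Sertoli cells. Of these 25 genes 23 reached 10 CPM in wild type, and the share of 4.57% does not cover genes below that level. A small set of selected cells high in *Crip1*, described below, is part of the sums. These cells held *Synpo2* and *Des* of this list at higher levels than the others and *Mylk* at lower ones.

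Regulators of the smooth muscle programme differed in how closely they marked these cells. *Myocd*, myocardin, was at 69.1 and 79.9 CPM and at 1.12 and 0 CPM in fibroblast-like cells, whereas its DNA-binding partner *Srf* was at 20.5 and 20.4 CPM against 15.2 and 14.3 CPM in germ cells. After each cell was thinned to 2000 UMIs, *Myocd* had a UMI in 12.5 to 14.8% of myoid cells per library and in 0 to 0.690% of Sertoli cells. *Nr2f2*, a nuclear receptor of mesenchyme, and *Tcf21*, a mesenchymal bHLH factor, were at 721 and 703 CPM and 830.0 and 774 CPM, and fibroblast-like cells held them at 440.4 and 475 CPM and 529 and 434 CPM. *Klf4*, which opposes smooth muscle differentiation in vessels, was at 454 and 495 CPM against 2331 and 1559 CPM in fibroblast-like cells. *Gata6* was at 3.84 and 2.33 CPM, at 119 and 107 CPM in Sertoli cells.

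Of 17 genes of calcium handling and contractile signalling, 10 reached 10 CPM in wild type and 7 were over 2-fold higher in myoid cells than in any compared group. Over all genes at 10 CPM or more, 4.57% were over 2-fold higher, a share that does not cover genes of this list below 10 CPM. The sums include a small set of selected cells high in *Crip1*, described below, which held *Pln* and *Gucy1b1* of this list at higher levels than the others. *Kcnmb1*, the smooth muscle subunit of the large-conductance potassium channel, was at 13.8 and 12.96 CPM and at 0.0236 and 0.00802 CPM in germ cells. The endothelin receptor *Ednra* was at 129 and 163 CPM, and fibroblast-like cells held it at 125 and 161 CPM, while the second receptor *Ednrb* was at 21.9 and 19.96 CPM and at 0.561 and 1.30 CPM in fibroblast-like cells. *Prkg1*, the cGMP-dependent kinase, and *Pde5a*, the phosphodiesterase that degrades cGMP, were at 76.2 and 74.9 CPM and 106 and 124 CPM. Oxytocin receptor (*Oxtr*) was at 0.160 and 0.389 CPM and was highest in Leydig cells, at 36.7 and 69.7 CPM.

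Matrix genes were high both in myoid and in fibroblast-like cells. Of 14 basement membrane genes, 6 were highest in myoid cells and 1 was over 2-fold higher, and of 21 other matrix genes 6 were highest and 3 over 2-fold higher. Over all genes at 10 CPM or more, 15.3% were highest in myoid cells and 4.57% over 2-fold higher, so the over 2-fold count of the 14 listed basement membrane genes lay near that background. The 14 genes did not include *Col4a3* and *Col4a4*, which also encode collagen IV chains. *Col4a4* was at 2842 and 3260 CPM in wild type, against 504 CPM (wild-type mean) in the highest compared group. *Col4a1*, a chain of the collagen IV network, was at 1438 and 1724 CPM against 724 and 791 CPM in fibroblast-like cells. *Lama2*, laminin alpha 2, was at 545 and 656 CPM against 619 and 618 CPM. *Eln*, elastin, was at 1653 and 1225 CPM with a ratio of 6.92 to 9.24, and *Col1a2*, a fibrillar collagen chain, was at 2225 and 2481 CPM against 3245 and 3557 CPM. *Dcn*, decorin, was at 579.7 and 561 CPM and at 4922 and 5198 CPM in fibroblast-like cells, a group that *Dcn* helped to define. Of the integrin alpha chains, which link cells to this matrix, *Itga1* was at 267 and 313 CPM with a ratio of 25.1 to 45.1, and *Itga8* was at 59.8 and 56.9 CPM against 0 and 0.867 CPM in fibroblast-like cells.

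Several receptors and secreted factors of known testicular signalling were counted in myoid cells, and others were higher in their neighbours. Of the hedgehog pathway, the ligand *Dhh* was counted in Sertoli cells (196 and 134 CPM) and at 2.88 and 1.56 CPM in myoid cells. Its receptor *Ptch1*, which is also a target of the pathway, was at 742 and 776 CPM in myoid cells and 328 and 207 CPM in fibroblast-like cells, and the target and inhibitor *Hhip* was at 155 and 163 CPM with a ratio of 5.30 to 5.96. The target *Gli1* was at 64.01 and 53.02 CPM in myoid and 65.1 and 50.3 CPM in fibroblast-like cells.

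*Gdnf*, a growth factor for spermatogonial stem cells, was at 30.2 and 29.2 CPM in the wild-type pups and 37.98 and 32.4 CPM in the Meioc KO pups, and in wild-type Sertoli cells at 4.42 and 9.40 CPM. At 2000 UMIs per cell it had a UMI in 5.09 to 5.83% of myoid cells, against 0 to 2.07% of Sertoli cells and 0 to 0.141% of germ cells, and without thinning in 23.8 to 30.9% of myoid cells. *Csf1* was at 81.1 and 69.7 CPM against 111 and 90.2 CPM in fibroblast-like cells. *Igf1* and *Cxcl12* were lower in myoid cells (492 and 436 CPM and 48.5 and 69.6 CPM) than in fibroblast-like cells (1072 and 1164 CPM and 423 and 549 CPM). Among 14 secreted factors 4 were highest in myoid cells (*Gdnf*, *Fgf2*, *Bmp4* and *Wnt5a*), where 15.3% of all genes at 10 CPM or more were. *Lif* had at most 0.534 CPM in any library.

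*Cyp26b1*, which degrades retinoic acid, was at 1751 and 1828 CPM in the wild-type pups and 1981 and 1884 CPM in the Meioc KO pups. Fibroblast-like cells of wild-type pups held it at 899 and 554 CPM and Sertoli cells at 7.74 and 9.77 CPM. It had a UMI in 89.2 to 91.7% of myoid cells at 2000 UMIs per cell and in 1.27 to 1.99% of germ cells. The other degrading enzymes *Cyp26a1* and *Cyp26c1* were at 0.480 and 0 CPM and 0 CPM. Of the enzymes that make retinoic acid, *Aldh1a1* was at 262 and 275 CPM, below its levels in Leydig cells (3951 and 4328 CPM) and Sertoli cells (451 and 473 CPM), and *Aldh1a2* was at 4.48 and 3.76 CPM.

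Spread between cells was taken as the variance beyond counting noise, as a squared coefficient of variation (median of 4 libraries), and its median over the 2710 genes at 50 CPM or more in every library was 0.107. Of the selection genes, whose spread the rule itself constrains, *Myl9* was at 0.0912, *Acta2* at 0.113, *Myh11* at 0.325, *Tagln* at 0.449 and *Actg2* at 0.717. *Tpm2* and *Mylk*, which the rule did not use, were at 0.127 and 0.145. The most variable gene was *Crip1*, a small LIM-domain protein, at 31.8, and the 5% of cells highest in it held 94.9 to 98.01% of its UMIs in each library. Next came *Clu*, *Cst12* and *Defb19*, abundant transcripts of Sertoli cells, at 13.9, 12.4 and 9.21. *Atf3*, *Stmn1*, *Gadd45g*, *Basp1* and *Hmgb2* were also among the 10 most variable, from 8.85 to 4.90.

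*Crip1* divided the selected cells into a small and a large set in every library. At a limit of 20 *Crip1* UMIs per 10000, set after the values were seen, the high cells numbered 18 and 17 in wild type and 19 and 20 in Meioc KO (74 in all, 2.49 to 3.10% per library), 17 cells lay between 5 and 20, and 2351 cells had no *Crip1* UMI. Both sets carried the selection genes: *Acta2* was at 11069 to 15289.9 CPM over the 4 libraries in the *Crip1*-high cells and at 10106.5 to 11423 CPM in the others. *Tagln* was higher in the *Crip1*-high cells of all 4 libraries, at 9014 to 10909.9 CPM against 2134 to 2688 CPM (3.64 to 4.34 times). *Des*, desmin, was at 550.1 to 825 CPM against 119 to 174 CPM. *Mylk* went the other way, at 1586 to 2035 CPM against 2426 to 2704 CPM.

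Genes known from vessel walls were higher in the *Crip1*-high cells. The 15 genes highest in the *Crip1*-high cells, ranked by their lowest log2 ratio over the 4 libraries, were *Crip1*, *Mustn1*, *Rcan2*, *Igfbp5*, *Map3k7cl*, *Nrip2*, *Rergl*, *Spon1*, *Tm4sf1*, *Olfml2a*, *Kcnab1*, *Olfr558*, *Dgkb*, *Rgs5* and *Zfhx3*. *Rgs5*, a regulator of G-protein signalling known from pericytes, was at 948 to 2865 CPM against 24.1 to 57.5 CPM. *Notch3*, the Notch receptor of vascular smooth muscle, was at 389 to 463 CPM against 12.9 to 18.1 CPM, *Pln*, phospholamban, at 87.2 to 256 CPM against 0.408 to 0.925 CPM, and *Pdgfrb* at 134 to 229 CPM against 15.01 to 20.8 CPM. Of the 8 vascular mural markers, *Kcnj8* and *Abcc9* were low in both sets (5.45 to 21.3 and 5.32 to 20.2 CPM in the *Crip1*-high cells). *Higd1b* was at 60.7 to 127 CPM against 4.29 to 10.4 CPM. *Mcam*, *Cspg4* and *Heyl* were higher in the *Crip1*-high cells (242 to 261, 170 to 222 and 114 to 213 CPM). The other selected cells also held them, at 85.5 to 108, 58.1 to 82.5 and 53.6 to 68.1 CPM. Selected cells with 5 or more of the 8 markers numbered 119, of which 38 were *Crip1*-high. *Tm4sf1*, which the study used to mark endothelium, was at 1496 to 1608 CPM, but *Pecam1*, *Cdh5* and *Ly6c1* had no UMI in the *Crip1*-high cells of any library, where 3 UMIs would have been 15.97 to 20.2 CPM. The remaining endothelium marker, *Egfl7*, is not reported here.

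In turn, the 15 genes lowest in the *Crip1*-high cells were *Sct*, *Pdgfra*, *Cyp26b1*, *Mme*, *Col4a3*, *Cp*, *Col4a4*, *Hhip*, *Mfap4*, *Igfbp6*, *Rprml*, *Dcn*, *Cx3cl1*, *Serpinf1* and *Clmp*. *Sct*, the hormone secretin, was at 1315 to 1588 CPM in the other myoid cells and at 0 to 13.4 CPM in the *Crip1*-high ones. *Col4a3* and *Col4a4*, which encode collagen IV chains found in mature basement membranes, were at 1349 to 1584 CPM and 2929.8 to 3452 CPM against 0 to 33.5 CPM and 0 to 93.9 CPM. *Pdgfra* was at 314 to 429.6 CPM in the other myoid cells and had no UMI in the *Crip1*-high cells of any library. *Ptch1* was at 709 to 884 CPM against 21.3 to 60.4 CPM and *Tcf21* at 701 to 855 CPM against 26.6 to 67.4 CPM. For these 74 cells the name peritubular myoid goes against the measured profile, and the shares of cells and the genotype test are also given without them. Since the limit was set on the values, none of these differences was tested.

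**Figure D2:**
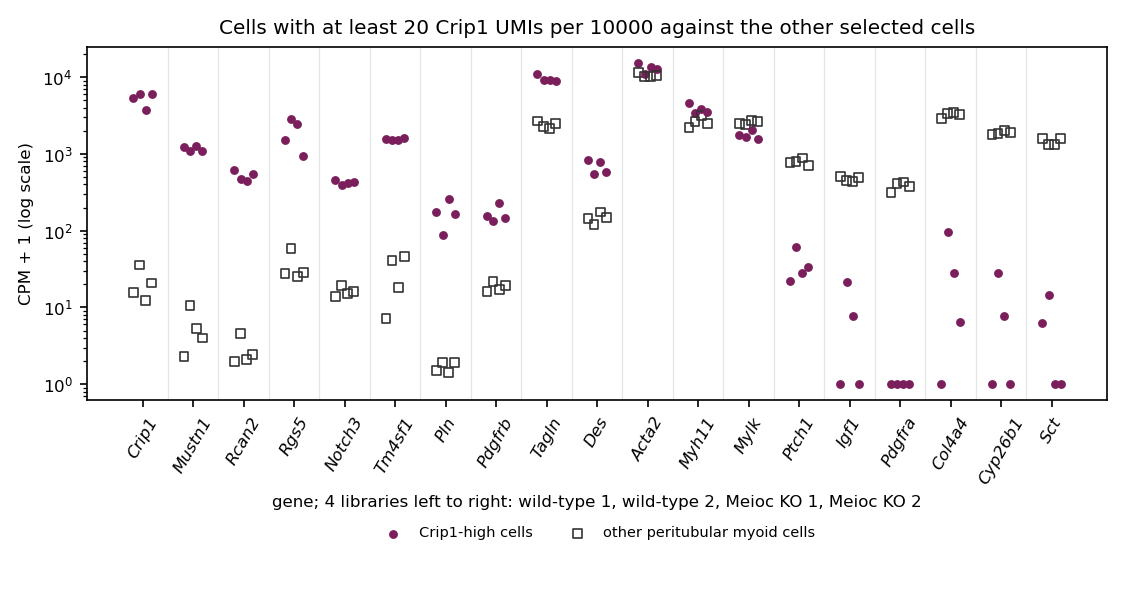
Summed level of 19 genes in *Crip1*-high cells (filled circles) and in the other selected cells (open squares), as CPM + 1 on a log axis, with 4 points per gene for the 4 libraries. *Rgs5*, *Notch3* and *Pln* were higher in every library in the *Crip1*-high cells, and *Pdgfra*, *Col4a4*, *Cyp26b1* and *Sct* were higher in every library in the other cells.

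The *Crip1*-high cells were no deeper than the rest, with medians of 8051 to 9670.5 UMIs per library against 8433 to 11593 in the others. A doublet caller (Scrublet), set to remove the top-scoring barcodes at 0.8% per 1000 deposited barcodes, removed 73 of these 74 cells and 6.55 to 9.33% of all selected cells per library. Their part in the genotype result was measured by leaving them out, which called the same 6 genes.

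Few of the selected cells held transcripts of several cell-division genes. At least 5 of 10 cell-division genes had a UMI in 2.62 to 5.98% of cells per library, and these cells numbered 18 and 20 in wild type and 20 and 41 in Meioc KO. These cells were deeper (medians of 13187.5 to 19961 UMIs) than the others (medians of 8316.5 to 11256 UMIs), and the library with the highest share, Meioc KO replicate 2, was also the deepest. By the same count the share was 1.63 and 1.89 in wild type and 1.58 and 2.74 in Meioc KO for fibroblast-like cells (percent of 184 to 265 cells per library), below the myoid share in each library. For Sertoli cells it was 1.56 and 1.95 in wild type and 5.14 and 2.42 in Meioc KO (percent of 154 to 214 cells), below the myoid share in 3 of the 4 libraries. Each fibroblast-like or Sertoli share rests on 3 to 11 cells, the shares were not brought to equal depth, and their differences were not tested. *Mki67* was at 32.6 to 55.04 CPM over the 4 libraries, against 294 to 455 CPM in germ cells. The contractile genes were still counted in the cells with division genes, with *Mylk* at 2087 to 2163 CPM per library, against 2433 to 2724 CPM in the remaining selected cells. *Tagln* was lower by more, at 978, 2027, 998 and 1911 CPM in the 4 libraries against 3034, 2458, 2347.5 and 2650.4 CPM, and *Myh11* was at 2429, 1933, 1755 and 2047 CPM against 2282, 2696, 3255 and 2572 CPM.

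Markers of other cell types were also counted in the selected cells. Of 5 germ-cell markers all 5 were counted in every library, with a summed level of 22.3 to 92.3 CPM against 2148 to 2323 CPM in germ cells. *Dazl* made 12.5 to 43.8 CPM of the sum in the selected cells, where the rule limits it, and germ cells were required to carry it. *Ddx4* stood at 1.44 to 4.30% of its germ-cell level, *Mael* at 0.979 to 4.29% and *Meioc* at 1.23 to 4.13%, and all 3 were highest in wild-type replicate 1. *Ldhc* was at 23.7 and 5.44 CPM in wild-type and at 0 CPM in both Meioc KO libraries, where 3 UMIs would be 0.400 and 0.267 CPM. Of the partners of MEIOC, *Rbm46* was at 45.1 and 41.7 CPM in the wild-type pups and 42.6 and 43.7 CPM in the Meioc KO pups, which is 15.3 to 17.6% of its germ-cell level, and had a UMI in 8.07 to 10.1% of myoid cells at 2000 UMIs per cell against 1.38 to 3.73% of Sertoli cells. Unthinned, *Rbm46* had a UMI in 31.3 to 41.98% of myoid cells. *Ythdc2* was at 8.23 to 12.4% of its germ-cell level. Wild-type fibroblast-like cells held *Rbm46* at 38.7 and 36.4 CPM and *Ythdc2* at 13.5 and 15.2 CPM, and the summed level of *Meioc* and its partners was 58.5 to 74.7 CPM in myoid cells and 45.97 to 60.7 CPM in fibroblast-like cells. All 6 Sertoli markers were counted, at a summed 299 to 462 CPM against 7400.4 to 7859 CPM in Sertoli cells, and *Aard* made 203 to 294 CPM of the sum in the selected cells. All 6 Leydig markers were counted at a summed 15.7 to 20.6 CPM. Of the other lists, the summed levels were 892 to 971 CPM for 5 fibroblast-like markers (against 6796 to 7425 CPM in fibroblast-like cells), 84.7 to 148 CPM for 5 endothelium markers and 1.87 to 26.8 CPM for 6 macrophage markers, and no marker of these lists was at 0 in all 4 libraries. Nearly all of the fibroblast-like sum was *Dcn* (544 to 579.7 CPM) and *Pdgfra* (304 to 421 CPM), and *Pdgfra* had a UMI in 87.2 to 91.1% of selected cells (43.1 to 51.1% at 2000 UMIs per cell), while *Lum* was at 0.259 to 0.960 CPM. Selected cells with at least 3 markers of such a list numbered 46 for fibroblast-like, 12 for Leydig, 18 for endothelium and 6 for macrophage markers.

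Few genes were called between genotypes in the selected cells, *Crip1*-high cells included. With edgeR's quasi-likelihood test on the summed counts, 6 of 5251 genes (those found in 25% or more of the cells of 1 genotype) passed a Benjamini-Hochberg adjusted p under 0.05 and an absolute log2 fold change over 0.1 (0.114%), and 90 genes (1.71%) had an unadjusted p under 0.05. *Rapgef5* and *Chst15* were higher in Meioc KO in both littermate pairs, as were the Sertoli-cell transcripts *Cst12* and *Defb19*, while 2 genes, *Mbd2* among them, were higher in wild type. In the wild-type libraries *Rapgef5* (15.3 and 17.2%) and *Chst15* (23.4 and 21.4%) had a UMI in under 25% of cells. Both thus entered the test through Meioc KO alone, the genotype in which they were higher. With the limit at 10% of cells, *Rapgef5* was called (edgeR adjusted p = 0.0169) and *Chst15* was not (edgeR adjusted p = 0.0835). None of the 133 listed genes that were tested was called, and 4 of them had an unadjusted p under 0.05 (*Ier3*, *Cxcl12*, *Tead1* and *Socs3*).

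*Rapgef5*, a guanine nucleotide exchange factor for the small GTPase Rap1 (ENSMUSG00000041992, chromosome 12, 117516479 to 117759737), was at 18.2 and 16.6 CPM in the wild-type pups and 35.3 and 34.02 CPM in the Meioc KO pups. The genotypes did not overlap, and the log2 fold change (wild-type over Meioc KO) was -0.95 ± 0.17 (SE, n = 2 libraries per genotype, edgeR adjusted p = 1.01e-04). It was called under each of the 19 alternatives in which it was tested, with values from -0.996 to -0.90, and it was too sparse to be tested in cells thinned to 2000 UMIs. Its share of cells with a UMI at 2000 UMIs per cell was 2.95 and 2.81% in wild type and 8.28 and 5.39% in Meioc KO, while germ cells had 1.56 to 2.46% and Sertoli cells at most 0.690%. Unthinned, the shares in myoid cells were 15.3 to 31.05%, those in germ cells 12.8 to 14.5% and those in Sertoli cells 2.60 to 7.81%, so that the wild-type share in myoid cells lay near that of germ cells. Endothelial cells, which numbered 12 to 42 per library, held *Rapgef5* at 68.5 to 157 CPM, and selected cells with 3 or more of 5 endothelium markers numbered 1 and 3 in wild type and 1 and 13 in Meioc KO. With those cells, all others that carried markers of another type and the *Crip1*-high cells left out, the log2 fold change was -0.94 (edgeR adjusted p = 2.90e-04).

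*Chst15*, a sulfotransferase that acts on chondroitin sulfate (ENSMUSG00000030930, chromosome 7, 132235780 to 132317228), was at 28.6 and 21.3 CPM in the wild-type pups and 44.5 and 43.4 CPM in the Meioc KO pups. Both Meioc KO libraries were above both wild-type libraries, and the log2 fold change was -0.78 ± 0.16 (SE, edgeR adjusted p = 0.00340). Fibroblast-like cells held it at 16.3 and 19.5 CPM in wild-type pups and 25.4 and 30.2 CPM in Meioc KO, which was not tested. *Chst15* was called under 12 of 19 alternatives, and it lost its call without wild-type replicate 2, Meioc KO replicate 1 or Meioc KO replicate 2, where the log2 fold changes were -0.60, -0.81 and -0.76 (edgeR adjusted p = 0.518, 0.0867 and 0.110).

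*Cst12*, a cystatin, was at 86.1 and 57.04 CPM in the wild-type pups and 151 and 88.6 CPM in the Meioc KO pups, with a log2 fold change of -0.69 ± 0.16 (SE, edgeR adjusted p = 0.0202), and Meioc KO replicate 2 lay close to wild-type replicate 1. *Defb19*, a beta-defensin, was at 130.3 and 113 CPM in the wild-type pups and 237 and 155 CPM in the Meioc KO pups, with a log2 fold change of -0.64 ± 0.15 (edgeR adjusted p = 0.0341). Sertoli cells held *Cst12* at 4681 to 5898 CPM and *Defb19* at 6899 to 8271 CPM. Selected cells with 4 or more of 6 Sertoli markers numbered 12 and 15 in wild type and 32 and 28 in Meioc KO, or 2.07 to 4.19% per library. With these cells, those carrying markers of other types and the *Crip1*-high cells left out, *Cst12* stood at a log2 fold change of 0.07 and *Defb19* at -0.09, and neither was called. After removal of Scrublet doublets the values were 0.07 and -0.01. Of 19 alternatives in which each was tested, *Cst12* was called under 7 and *Defb19* under 5. *Cst12* also lost its call without wild-type replicate 2 or Meioc KO replicate 1 (-0.44 and -0.32), and *Defb19* without wild-type replicate 1, wild-type replicate 2 or Meioc KO replicate 1 (-0.71, -0.56 and -0.36).

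*Mbd2*, a reader of methylated DNA, was at 33.4 and 58.3 CPM in the wild-type pups and 29.8 and 30.02 CPM in the Meioc KO pups, with a log2 fold change of 0.67 ± 0.16 (edgeR adjusted p = 0.0341), and wild-type replicate 2 stood above the other 3 libraries. *Mbd2* was called under 4 of 19 alternatives. With the littermate pair as a replicate block, *Mbd2* was not called (edgeR adjusted p = 0.0590), nor was *Defb19* (edgeR adjusted p = 0.0930). *Mbd2* lost its call without wild-type replicate 2, Meioc KO replicate 1 or Meioc KO replicate 2 (log2 fold changes of 0.18, 0.62 and 0.72).

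The replicate block called 8 genes (0.152%), of which *Rapgef5*, *Chst15* and *Cst12* were shared with the fit without it. The others were *Clu*, which wild-type Sertoli cells held at 7190.5 and 5881 CPM and myoid cells at 105 and 61.1 CPM, and 4 transcripts that germ cells held at 776 to 1833 CPM: *Sycp1* and *Sycp3* of the synaptonemal complex, *Tex101* and *Tuba3a*. *Sycp1* was at 51.2 and 20.9 CPM in the wild-type pups and 16.7 and 10.1 CPM in the Meioc KO pups, with a blocked log2 fold change of 1.40 ± 0.16 (edgeR adjusted p = 5.61e-14). In the myoid cells it stood at 0.896 to 4.22% of the germ-cell level, where *Ddx4* stood at 1.44 to 4.30%. Without the block it was not called (edgeR adjusted p = 0.999), and its log2 fold change was 0.75 and 2.00 without wild-type replicate 1 or wild-type replicate 2. Germ-cell markers were likewise highest in wild-type replicate 1. With the block and no *Dazl* UMI allowed, *Sycp1*, *Sycp3* and *Tex101* were still called, at log2 fold changes of 1.60, 0.96 and 0.69, and *Tuba3a* was not among the genes tested. With the block and with genes that were higher in germ cells left out, 4 genes were called, *Rapgef5*, *Chst15*, *Clu* and *Cst12*.

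**Figure D3:**
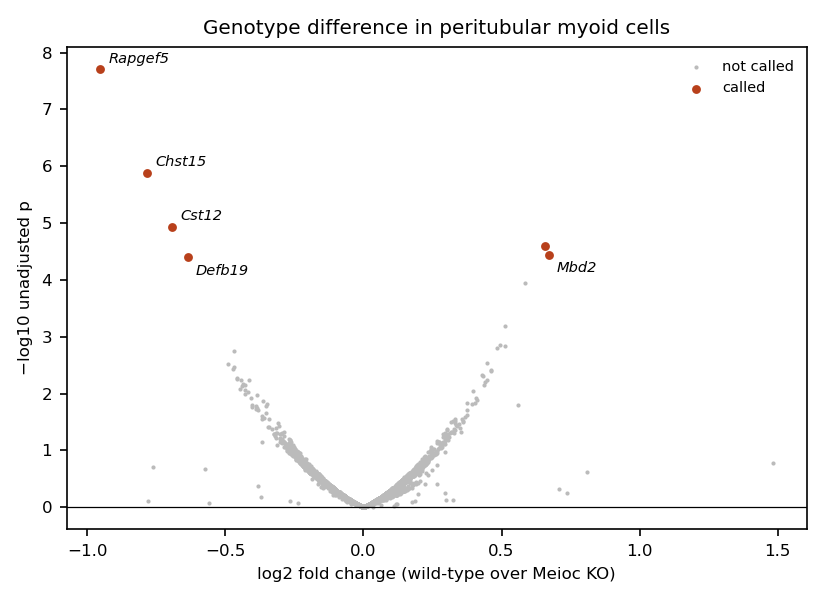
Log2 fold change (wild-type over Meioc KO, x axis) and −log10 of the unadjusted p (y axis) for 5251 genes in the summed counts of myoid cells. The 6 called genes are coloured and 5 of them named, with 4 higher in Meioc KO at the left and 2 higher in wild type at the right.

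No gene of the functional lists was called between genotypes. Of 23 contractile genes tested, 11 were nominally higher in wild type and 12 in Meioc KO, their log2 fold changes ran from -0.19 to 0.12, and the median was -0.03, beside 0.01 over all genes tested. The 9 basement membrane genes had a median of -0.05, the 16 other matrix genes 0.03, the 7 hedgehog genes -0.02, the 6 retinoid genes 0.04 and the 8 secreted factors -0.07. Medians of the 12 adhesion, 9 transcription factor, 6 growth factor receptor, 4 hormone receptor and 3 mural genes were -0.03, 0.05, -0.07, -0.04 and -0.12. The 6 genes tested of calcium and contractile signalling all had values below 0, from -0.16 to -0.01, with a median SE of 0.15. Over all 5251 genes tested, 2511 had values below 0. Single values were 0.00 ± 0.19 for *Ptch1*, -0.07 ± 0.21 for *Cyp26b1*, -0.08 ± 0.22 for *Mylk* and -0.20 ± 0.16 for *Gdnf* (log2 fold change ± SE). *Cxcl12* had the largest value among the secreted factors, -0.35 ± 0.14, at 48.5 and 69.6 CPM in the wild-type pups and 82.3 and 74.01 CPM in the Meioc KO pups, and was not called (edgeR adjusted p = 0.999). A p above the threshold does not show that these genes were equal, and the median standard error over all genes tested was 0.16.

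More genes were called between the littermate pairs than between genotypes, and heat-shock genes led them. With genotype in the fit, 56 of 5251 genes (1.07%) differed between the 2 batches, 30 higher in batch 1 (0.571%) and 26 higher in batch 2 (0.495%). Of 20 immediate early and stress genes, 6 were called higher in batch 1 and 1 in batch 2, with a median log2 fold change (batch 2 over batch 1) of -0.30 against 0.00 over all genes. *Hspa1a*, an inducible heat-shock protein, was at 799 and 59.6 CPM in the wild-type pups and 1259 and 64.04 CPM in the Meioc KO pups, so that both genotypes were high in batch 1 and low in batch 2 (log2 fold change -3.96 ± 0.17, edgeR adjusted p = 6.00e-108). *Hspa1b*, its near-identical neighbour, was at 224 and 22.2 CPM in the wild-type pups and 415 and 27.1 CPM in the Meioc KO pups, and reads of these paralogs can be split uncertainly between them. *Dnajb1* (54.8 to 174 CPM), *Atf3*, *Jun* and *Hspb1* were the others on the list to be called, in the same order of batches, whereas *Zfp36*, which binds AU-rich mRNA, was higher in batch 2. *Fos*, *Egr1* and *Junb* had log2 fold changes of 0.04, 0.22 and 0.21 between batches and were not called. Transcripts of other cell types were also called higher in batch 1: *Tex101*, *Tuba3a*, *Sycp1* and *Sycp3* of germ cells at -1.52, -1.16, -0.99 and -0.90, and *Clu* and *Cst12* of Sertoli cells at -0.83 and -0.62 on the log2 scale. Their part in the difference of the stress genes was not tested.

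The same order of batches was seen in wild-type fibroblast-like cells, where *Hspa1a* was at 346 and 71.99 CPM in batches 1 and 2. Litter, library preparation and sequencing all changed with the batch and cannot be told apart. Between genotypes, the 20 genes had a median log2 fold change of 0.00 and ran from -0.78 (*Hspa1b*) to 0.45 (*Ier3*), and none was called.

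**Figure D4:**
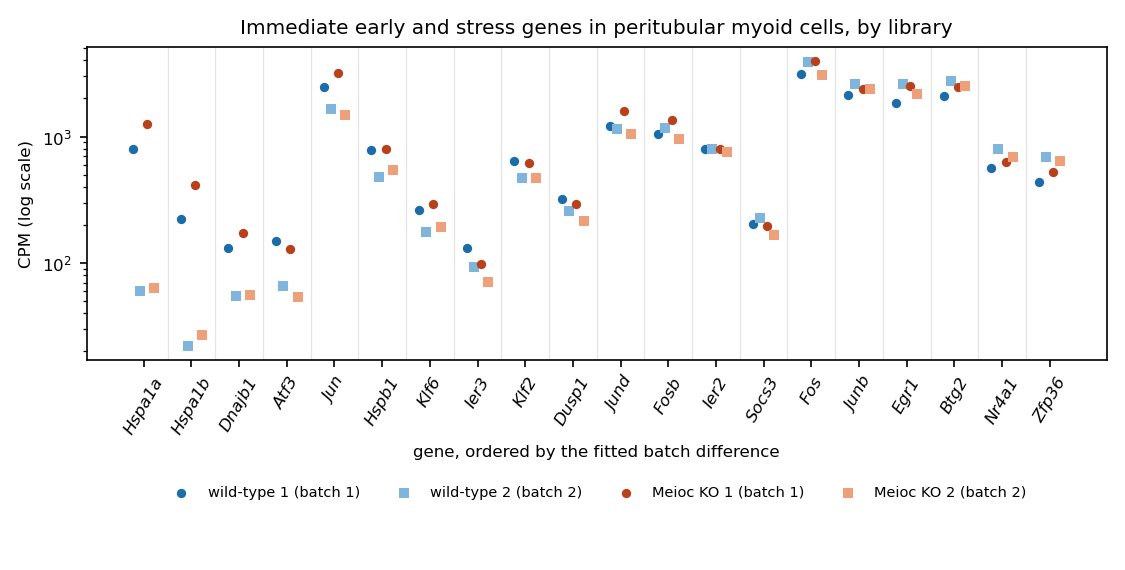
Level of the 20 immediate early and stress genes in the myoid cells of each library, as CPM on a log axis, ordered from higher in batch 1 (left) to higher in batch 2 (right). For *Hspa1a* both batch 1 libraries (circles) lie above both batch 2 libraries (squares), while *Fos* shows no such order.

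Selected cells, *Crip1*-high ones included, made 9.16% (exact 95% binomial interval 8.46 to 9.89%) and 6.71% (6.19 to 7.26%) of filtered barcodes in the wild-type libraries, and 10.1% (9.45 to 10.8%) and 9.51% (8.84 to 10.2%) in the Meioc KO libraries. These intervals cover counting error only. The group means were 7.93 ± 1.73% and 9.81 ± 0.431% (SD, n = 2), a difference of -1.88 percentage points (two-sided exact permutation p = 0.333, the smallest that 2 against 2 allows). Meioc KO was higher in both littermate pairs, with differences (wild-type minus Meioc KO) of -0.962 and -2.80 percentage points. Without the *Crip1*-high cells the shares were 8.87 and 6.51% in wild type and 9.87 and 9.23% in Meioc KO. As a share of barcodes with at most 2 *Dazl* UMIs, which leaves out most germ cells, the values were 36.8 and 37.6% in wild type and 46.2 and 43.2% in Meioc KO. The number of myoid cells per Sertoli cell found by its markers was 3.02 and 3.70 in wild type and 3.57 and 4.16 in Meioc KO, where wild-type replicate 2 lay above Meioc KO replicate 1. The median depth of these Sertoli cells was 8313 and 8903.5 in wild type and 3340 and 3382 in Meioc KO (UMIs per cell), so the marker rule acted on shallower cells in Meioc KO, and its part in the ratio was not tested. Since interstitium was removed and cells were recovered by enzymatic digestion, none of these ratios is a count of cells in the tissue.

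**Figure D5:**
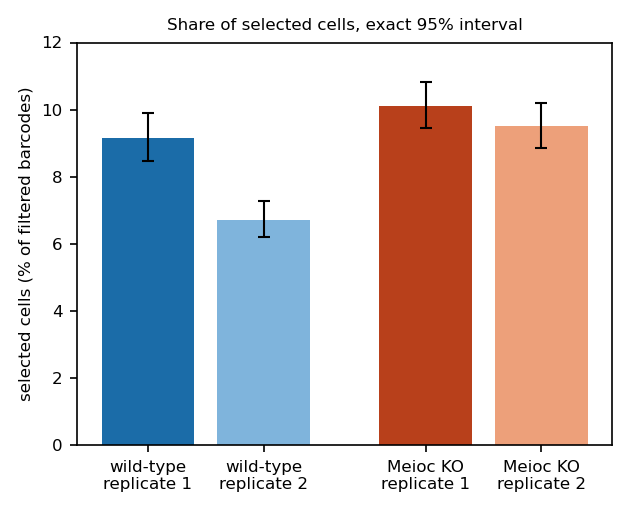
Selected myoid cells as a percentage of filtered barcodes (y axis) in each of the 4 libraries; bars start at 0 and error bars are exact 95% binomial intervals. Wild-type replicate 2 is the lowest library, and the intervals of wild-type replicate 1 overlap those of both Meioc KO libraries.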

How the data were processed

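Single-cell RNA-seq of P15 testes was available for 2 wild-type and 2 Meioc KO pups, grouped by the genotype labels. The authors sequenced 10x Genomics 3′ v3.1 libraries and ran Cell Ranger (version 4.0.0 in the submitters' notes) on its mm10 reference, and they deposited raw UMI counts per gene and barcode for called cells, with no normalization. The study's doublet score was not used here, and selected cells were kept whole, with Scrublet as an alternative. Deposited barcodes numbered 11986 to 16486 per library with 158291903 to 190455307 UMIs, and 6334 to 8494 passed the filters of over 1000 genes and under 10% mitochondrial UMIs. The members, the gene lists and the rules for named genes were chosen with earlier results of these data known, so the lists are not independent evidence.

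Compared groups were set by markers in barcodes with at most 2 *Dazl* UMIs that were not selected: Sertoli (4 of *Sox9*, *Cldn11*, *Wt1*, *Rhox8*, *Aard*, *Gata4*; 154 to 214 cells per library), Leydig (4 of *Dlk1*, *Cyp11a1*, *Star*, *Insl3*, *Cyp17a1*, *Hsd3b1*; 24 to 64) and fibroblast-like cells (3 of *Lum*, *Dpt*, *Clec3b*, *Dcn*, *Pdgfra*; 184 to 265). Endothelial cells carried at least 4 of *Tm4sf1*, *Pecam1*, *Cdh5*, *Egfl7* and *Ly6c1*. A barcode that met the rules of 2 groups was left out. Germ cells had over 2 *Dazl* UMIs, at least 3 germ-cell markers and at most 1 selection gene (4123 to 6384). Comparisons with these groups are descriptions with no test. Leydig cells were few, and the name fibroblast-like rests on those 5 markers alone.

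Counts were summed per library over the selected cells and tested with edgeR 4.0.16 (TMM scaling, robust quasi-likelihood F-test with a genotype term alone, log2 fold change of wild-type over Meioc KO). The selection genes, *Dazl* and mitochondrial genes were left out of the tests but kept in library sizes. The test was tried on simulated counts for this comparison (5251 genes, 200 changed), where it recovered 98.5% of genes changed by a log2 value of 1 and 38.8% of those changed by 0.500, with 8 false calls. The simulation gave every gene the same spread and held no batch difference, unlike the real libraries. These rates therefore need not hold for the real counts. The labels say that each batch was a littermate pair, and the replicate number was taken as the batch number, which pairs the libraries. Deviations from the group means of same-numbered libraries correlated with r = 0.27 across 5251 genes, which are not independent replicates. The fit with the pair as a block was an alternative, and the same fit gave the batch difference. Thinned shares used 2000 random UMIs per cell and left out shallower cells (at most 4 myoid cells and 34 Sertoli cells per library). With 2 pups per genotype, the spread between pups of 2 litters was estimated by edgeR with information shared across genes. Each edgeR p-value and SE is therefore not a measure of a gene's own spread between pups alone. Named genes were the listed genes, the 25 with the highest ratio in wild type, all called genes and the 10 most variable at 50 CPM or more, and the genes of the *Crip1*-high cells were named after their values were seen. Some genes that these rules name are not reported here. Gene positions came from GENCODE vM21 on GRCm38, matched by gene ID (32158 of 32285). DESeq2 1.42.0 was an alternative test, and scanpy 1.11.5 supplied Scrublet.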

Additional observations from a re-analysis of the deposited data

Results flagged for a closer look

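*Cst12* and *Defb19* drew attention because their genotype differences pointed one way in both littermate pairs in myoid cells and the other way in both pairs in Sertoli cells. In myoid cells the log2 ratio (wild-type over Meioc KO, on CPM + 1) of *Cst12* was -0.81 in batch 1 and -0.63 in batch 2, and in Sertoli cells it was 0.33 and 0.14 (mean 0.24). For *Defb19* the values were -0.86 and -0.45 in myoid cells and 0.13 and 0.21 in Sertoli cells (mean 0.17). The difference between the cell types was not tested. In myoid cells the genotype difference depended on which cells were kept. With the selected cells carrying markers of another type (Sertoli markers among them) and the *Crip1*-high cells left out, the edgeR log2 fold changes were 0.07 for *Cst12* and -0.09 for *Defb19*, without Scrublet doublets 0.07 and -0.01, and with the 5% limit on mitochondrial UMIs -0.05 and -0.0049. In Sertoli cells neither genotype difference was called (edgeR adjusted p = 0.999 and 0.999).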

How the results depend on the processing

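The number of genes called between genotypes depended on the processing, from 0 to 15 over 20 alternatives against 6. It was 2 with DESeq2 size factors in edgeR, 1 with DESeq2's own test, 2 with genes detected in 10% of cells, 15 with no detection filter, 2 with a 5% mitochondrial limit, 3 without Scrublet doublets, 1 with no *Dazl* UMI allowed and 0 in cells thinned to 2000 UMIs (981 genes tested, 7 with an unadjusted p under 0.05, *Rapgef5* no longer among those tested). Leaving out each library in turn gave 1 to 13 (1 without Meioc KO replicate 1, 13 without wild-type replicate 2). With the pairing as a replicate block it was 8, and it ended the calls of *Mbd2* and *Defb19*. Chosen after seeing the data, leaving out *Crip1*-high cells gave 6, leaving out also cells with markers of another type gave 2, and the block without genes of germ cells or without *Dazl* UMIs gave 4 and 8. *Cst12* reversed to 0.0659 without Scrublet doublets and 0.0728 without both the *Crip1*-high cells and the cells carrying markers of another type. Over the 6 genes, 51 combinations of gene and alternative kept the call and 59 lost it in the same direction. The difference in share kept its direction throughout, from -10.2 percentage points with the 5% mitochondrial limit, under which myoid cells made 21.1 to 34.7% of barcodes, to -0.657 without wild-type replicate 2. Without wild-type replicate 1 it was -3.10. After removal of Scrublet doublets the genotypes overlapped in share, at 9.60 and 7.05% in wild type and 10.9 and 9.54% in Meioc KO (two-sided exact permutation p = 0.667). Apart from the named changes the cause was not tested. Depth limits the thinned shares and genes below 25% detection, which were not tested.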

Other observations

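*Sct* was counted in 78.2 to 84.5% of myoid cells at 2000 UMIs per cell and in 0 to 2.78% of Sertoli cells, and unthinned in 94.4 to 96.1% of myoid cells. It was not among the 25 genes with the highest ratio to the compared groups, which include fibroblast-like and Leydig cells. *Mef2c*, a muscle transcription factor, was at 1134 to 1493 CPM in *Crip1*-high cells and 137 to 169 CPM in the other selected cells. *Tgfb2* and *Tgfb3* were also higher in the *Crip1*-high cells of every library, at 181 to 251 CPM and 101 to 170.3 CPM against 23.1 to 29.8 CPM and 17.8 to 22.4 CPM, as was the soluble guanylate cyclase subunit *Gucy1b1* (311 to 357 CPM against 19.5 to 26.8 CPM). *Lama2* and *Lamb1* were lower there (21.3 to 67.1 CPM and 20.2 to 53.7 CPM against 561 to 667 CPM and 433 to 502 CPM), while *Lama5* was higher (182 to 261 CPM against 6.76 to 10.5 CPM). Genes of this paragraph were singled out after their values were seen.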
